A study of Arabidopsis thaliana with 4 samples.

Results

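In developing Arabidopsis thaliana seeds, 8 genes were followed. ZOU, ICE1, KRS, ALE1, TWS1, GSO1 and GSO2 act in endosperm breakdown around the growing embryo or in the signal for its cuticle. EPR1, a wall protein gene known from the endosperm of germinating seeds, was grouped with them. The genes were chosen by locus identifier, and all 8 were present among the 33187 identifiers of the deposited table. Whole seeds of 7 days post anthesis, holding torpedo or linear embryos, gave 2 libraries of an erf4 mutant (SALK_073394, a T-DNA insertion; erf4_2 in the titles) and 2 of the wild type. The mutant is a single insertion line. Separate plants or growths are not stated for the libraries, so it is unknown whether the p-values rest on a spread between independently grown plants. The question is how seed transcripts differ with a mutation in ERF4, an ethylene response factor that represses transcription.

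In an Arabidopsis seed the endosperm first fills the space around the embryo and then gives way to it. ZOU and ICE1 encode basic helix-loop-helix transcription factors that pair in the endosperm and are needed both for this breakdown and for a complete cuticle on the embryo. The same endosperm makes KRS, a small secreted Stig1-type protein needed for the sheath that lets the embryo slide free, and ALE1, a subtilisin protease; both genes are known to need ZOU. The cuticle is checked by a signal that crosses between the tissues: the embryo makes the precursor of the peptide TWS1, ALE1 in the endosperm cuts it, and the receptor kinases GSO1 and GSO2 at the embryo surface perceive the cut peptide. EPR1 encodes an extensin-like, proline-rich wall protein known from the endosperm of germinating seeds. RefSeq (TAIR10.1) lists AT5G01075, the TWS1 locus, as a glycosyl hydrolase family 35 protein, and KRS (AT1G50650) as a Stig1 family protein.

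Expression was deposited as TPM, the share of a library's transcripts that belong to a gene, per length, so that levels can be compared between genes. The number of reads behind each value is unknown. Between 20295 and 20630 genes per library reached 1 TPM. The libraries differed in ways that genotype does not account for. A list of 12 embryo genes, mostly for storage proteins, summed to 33764 and 1109 TPM in erf4 replicates 1 and 2, against 30001 and 15777 TPM in wild type replicates 1 and 2, so erf4 replicate 2 stood apart. Across the 20804 genes tested, the median level of a gene in erf4 replicate 2 lay 0.12 above the gene's own mean on the log2(TPM + 1) scale, and in erf4 replicate 1 it lay at -0.08. ERF4 (AT3G15210) itself had 34.6 and 41.3 TPM in the libraries labelled erf4, against 38.0 and 33.0 TPM in the wild type. Its values overlapped, so they do not check the genotype labels, and erf4 below means the libraries labelled erf4.

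Levels differed widely among the 8 genes, and EPR1 was the most abundant in every library. In erf4 the mean levels ran, from high to low, EPR1, ICE1, KRS, ALE1, ZOU, TWS1, GSO2 and GSO1. In the wild type TWS1 stood between KRS and ALE1, and the rest kept that order. Neighbours in the order that overlapped between libraries were ICE1 and KRS, ALE1 and ZOU, and ZOU and TWS1 in erf4, and ALE1 and ZOU alone in the wild type. EPR1 ranked 70 among all tested genes by mean TPM, ICE1 684 and KRS 880, whereas GSO1 ranked 16631 and was above only 15.0% and 20.1% of tested genes in the erf4 libraries and 23.2% and 23.4% in the wild type.

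**Figure D1:**
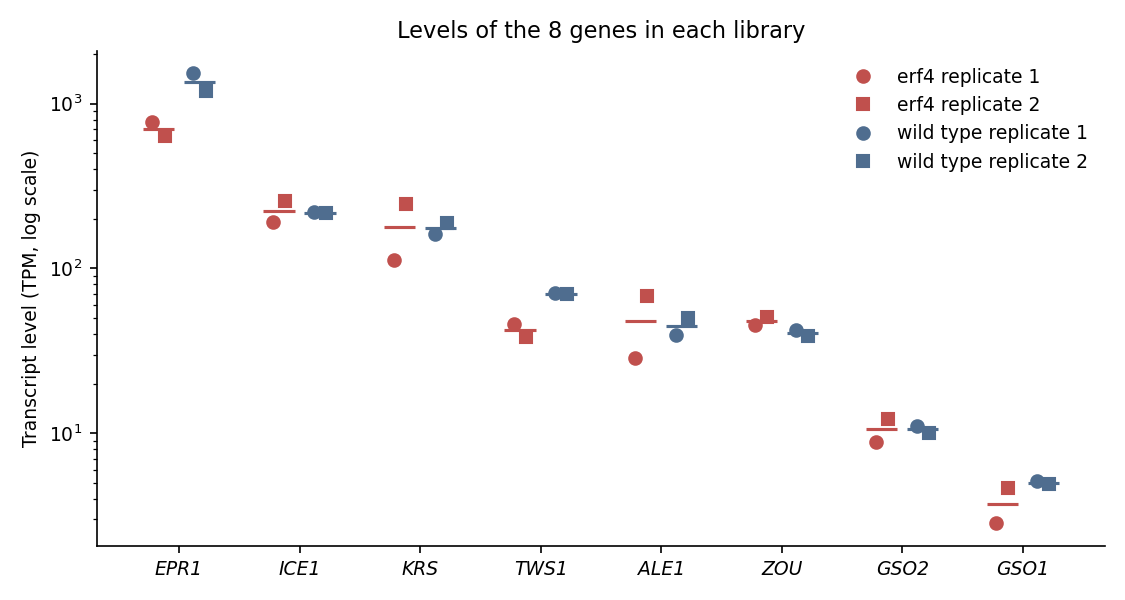
Transcript level of each gene in each library (vertical axis, TPM on a log scale; red, erf4; blue, wild type; circles, replicate 1; squares, replicate 2; short lines, genotype means). EPR1 stands at 779 and 633 TPM in erf4 and 1530 and 1189 TPM in the wild type, while KRS and ALE1 spread most widely between the erf4 libraries.

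The wall protein gene EPR1 and the peptide precursor gene TWS1 had lower values in both erf4 libraries than in either wild-type library, while the receptor gene GSO1 was lower and the regulator gene ZOU higher by amounts close to the spread between libraries. The other 4 genes overlapped between genotypes, as did 66.3% of all tested genes. None of the 8 was called: across all 20804 tested genes, limma called no gene at an adjusted p under 0.05, which is 0.0% in either direction, and the smallest adjusted p was 0.171. At an unadjusted limma p under 0.05 there were 881 higher genes (4.23%) and 571 lower genes (2.74%). Leaving out wild type replicate 1 gave 7 called genes, and leaving out the other wild-type library gave 8. None of the 8 genes described here was among them.

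Of the 8 genes, 1 exceeded both wild-type values in both erf4 libraries and 3 were under both, where 21.5% and 12.2% of all tested genes did so. Without erf4 replicate 1 the number above was 5, where 55.1% of all tested genes were above. Without erf4 replicate 2 the number below was 7, where 46.5% of all tested genes were below. The median log2 fold change of the 8 genes was -0.04, beside 0.03 over all tested genes. With 2 libraries against 2, an exact two-sided permutation test cannot give a p below 0.333, so none was run on single genes.

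**Figure D2:**
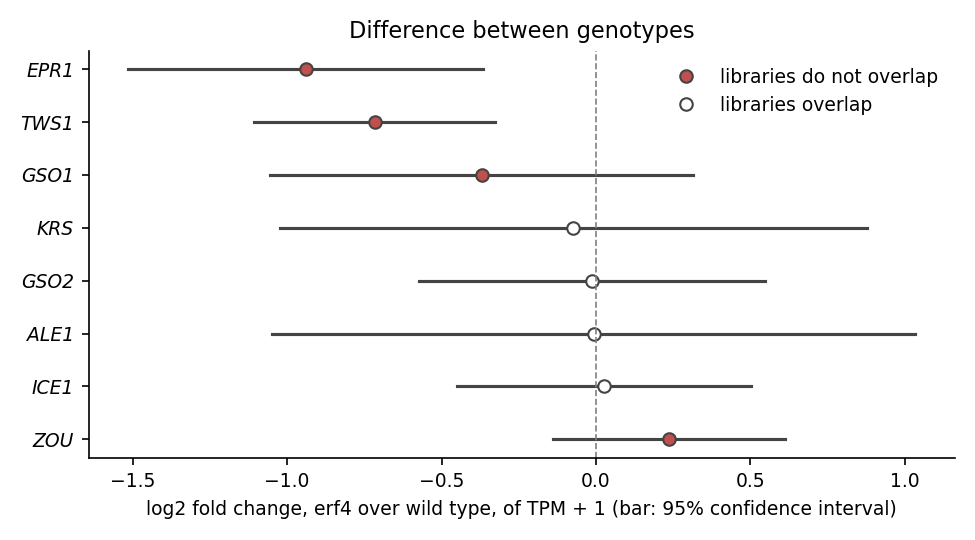
Log2 fold change of TPM + 1, erf4 over wild type, for each gene (horizontal axis; points, limma estimate; bars, 95% confidence interval; filled points, genes whose libraries do not overlap between genotypes). The intervals of EPR1 and TWS1 lie below 0 and the other 6 include it; no gene passed adjustment over all tested genes.

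The regulator pair did not differ beyond the spread. ZOU (AT1G49770, chromosome 1) had 45.1 and 50.5 TPM in erf4, against 42.2 and 38.6 TPM in the wild type. Both erf4 values were above both wild-type values, by a ratio of means of 1.18. On the log2(TPM + 1) scale the difference was 0.23 (SE 0.15, 95% confidence interval -0.14 to 0.61, limma adjusted p = 0.927). ICE1 (AT3G26744, chromosome 3), which also acts in cold response and stomatal differentiation, was far more abundant, with 191 and 256 TPM in erf4 against 220 and 216 TPM in the wild type. The wild-type libraries were nearly equal and lay between the erf4 libraries. Its log2 fold change was 0.02 (SE 0.19, interval -0.45 to 0.50), and turned to -0.013 after rescaling the libraries by their median ratios and to -0.032 after quantile normalization.

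Of the stomatal genes listed beside ICE1, SPCH and MUTE were scarce in these seeds, while SCRM2 and FAMA were detected in every library. The close ICE1 relative SCRM2 (AT1G12860) had 20.8 and 28.0 TPM in erf4, against 25.5 and 24.8 TPM in the wild type. FAMA (AT3G24140), which acts late in guard cell formation, had 7.15 and 8.70 TPM in erf4 and 9.16 and 7.25 TPM in the wild type. SPCH (AT5G53210), which starts the stomatal lineage, was near the detection filter, with 0.40 and 0.60 TPM in erf4 and 1.56 and 2.54 TPM in the wild type (log2 fold change -1.01, limma adjusted p = 0.562). MUTE (AT3G06120) was listed at 0 in 3 of 4 libraries. None of the 3 tested genes of this list was called in either direction.

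KRS and ALE1, the genes of the endosperm that need ZOU, varied more between the erf4 libraries than between genotypes. KRS (AT1G50650, chromosome 1) had 113 and 246 TPM in erf4, against 163 and 190 TPM in the wild type. ALE1 (AT1G62340, chromosome 1) had 28.7 and 67.7 TPM in erf4, against 39.4 and 50.1 TPM in the wild type. For both genes erf4 replicate 1 was the lowest library and erf4 replicate 2 the highest, with the wild type between them. The log2 fold change of KRS was -0.07 (SE 0.37, interval -1.02 to 0.88) and that of ALE1 was -0.01 (SE 0.41, interval -1.05 to 1.03); both intervals are wide. Both directions turn with the libraries used: without erf4 replicate 1 the log2 fold changes were 0.48 for KRS and 0.60 for ALE1, and without wild type replicate 2 they were 0.04 and 0.16.

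The gap between the erf4 libraries was large for these genes. Erf4 replicate 2 over erf4 replicate 1 was 2.36 for ALE1 and 2.17 for KRS, and 2.04 and 1.88 after rescaling by median ratios. A ratio of at least 2 was seen for 2 of the 8 genes and for 4.95% of the tested genes with values above 0 in every library, and a ratio that far below 1 for 0 of the 8 and 2.72%. Between the wild-type libraries 0 of the 8 differed by at least 2-fold, where replicate 2 was that much higher for 2.15% of genes and lower for 4.62%. A higher value in erf4 replicate 2 was itself common, in 70.9% of genes, and in 6 of the 8 genes described here. In bulk seeds, fewer cells of a type and less RNA per cell cannot be told apart, and the part that seed stage or tissue share has in this gap was not tested. Storage protein genes of the embryo were low in erf4 replicate 2, and the regulators on the same list were mixed. FUS3 (AT3G26790) and ABI3 (AT3G24650) were higher in erf4 replicate 2 than in erf4 replicate 1. Their ratios were 1.81 and 1.47, short of those of ALE1 and KRS. LEC1 went the other way, with a ratio of 0.933.

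The 2 other Stig1-type genes listed were barely detected. GRI (AT1G53130) was listed at 0 in every library, and AT1G11925 at 0 and 0.57 TPM in erf4 and 0 and 0.81 TPM in the wild type. Other subtilases were measured beside ALE1. AT2G05920 had 86.4 and 103 TPM in erf4 and 83.3 and 71.7 TPM in the wild type, AT1G01900 had 57.7 and 133 TPM in erf4 and 94.0 and 134 TPM in the wild type, and SBT5.4 (AT5G59810) had 4.78 and 11.5 TPM in erf4 and 5.76 and 7.00 TPM in the wild type. AT1G01900 and SBT5.4, like ALE1, were at least 2-fold higher in erf4 replicate 2 than in erf4 replicate 1, with ratios of 2.31 and 2.41. None of the 3 was called in either direction.

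TWS1, the embryo's precursor of the peptide ligand, had the more even difference between genotypes. TWS1 (AT5G01075, chromosome 5) had 46.2 and 38.5 TPM in erf4, against 70.5 and 69.5 TPM in the wild type. The erf4 values did not reach the wild-type range, and the wild-type libraries were nearly equal. The mean was 42.4 ± 5.45 TPM in erf4 and 70.0 ± 0.658 TPM in the wild type (SD, n = 2 each), a ratio of 0.605. The log2 fold change was -0.72 (SE 0.15, interval -1.11 to -0.33, limma adjusted p = 0.461), with the smallest unadjusted p of the 8 genes, ranked 215 among all tested genes. Leaving out any 1 library kept it between -0.85 and -0.59, and it was -0.59 without erf4 replicate 2, the library with few storage transcripts. Of the 12 embryo genes listed, 11 had a negative log2 fold change, as did 9174 of all 20804 tested genes, and the list median was -1.76. This list depended on erf4 replicate 2. Without that library 9 of the 12 were positive, as were 8612 of all tested genes, and the list median was 0.64. Without erf4 replicate 1 the list median was -4.40. Of the 12, 3 were, like TWS1, under both wild-type values in both erf4 libraries, where 12.2% of all tested genes were: FUS3 at -0.89, ABI3 at -0.53 and the storage globulin gene CRA1 (AT5G44120) at -1.83. The embryo regulator gene LEC1 (AT1G21970), at 0.57, exceeded both, where 21.5% of all tested genes did. None of the 12 was called in either direction, and the part of embryo stage or embryo share in the TWS1 values was not tested.

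The receptor genes were the least abundant. GSO1 (AT4G20140, chromosome 4) had 2.84 and 4.63 TPM in erf4, against 5.10 and 4.92 TPM in the wild type. Both erf4 values were lower, but erf4 replicate 2 was close to the wild type. Its log2 fold change was -0.37 (SE 0.27, interval -1.06 to 0.32, limma adjusted p = 0.969), and -0.09 without erf4 replicate 1 or -0.65 without erf4 replicate 2. GSO1 overlaps AT4G20150, a gene on the opposite strand with 151 and 134 TPM in erf4 and 152 and 148 TPM in the wild type. Whether the counting used strand is not given in the sources used here, so reads of these neighbours may not have been told apart and the GSO1 values are uncertain. GSO2 (AT5G44700, chromosome 5) had 8.85 and 12.2 TPM in erf4, against 11.0 and 10.0 TPM in the wild type. Its genotype means were both 10.5 TPM, and the log2 fold change was -0.01 (SE 0.22, interval -0.57 to 0.55).

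EPR1 showed the widest difference of the 8 in TPM and in fold. EPR1 (AT2G27380, chromosome 2) had 779 and 633 TPM in erf4, against 1530 and 1189 TPM in the wild type. No erf4 value reached the wild-type range. The ratio of means was 0.519, and the log2 fold change was -0.94 (SE 0.23, interval -1.52 to -0.37, limma adjusted p = 0.489), with the unadjusted p ranked 341 among all tested genes. It ran from -1.12 to -0.76 when each library was left out in turn, and was -0.79 without erf4 replicate 2. EPR1 alone held 64.1% and 48.4% of the summed TPM of the 8 genes in erf4, against 73.5% and 67.3% in the wild type. The sum of the 8 genes was 1215 and 1309 TPM in erf4 and 2081 and 1768 TPM in the wild type, and without EPR1 it was 436 and 676 TPM in erf4 and 551 and 579 TPM in the wild type, where the genotypes overlap.

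Over the 4 libraries the 8 genes did not share a pattern, and some pairs lay close together. Likeness was measured as the Euclidean distance between log2(TPM + 1) values, each gene centred on its own mean, over the 4 libraries; with so few libraries it is a description only. Among 20803 other genes KRS was at rank 11 from ALE1 (distance 0.13), and ALE1 was at rank 21 from KRS. TWS1 was at rank 56 from EPR1 (distance 0.33), and EPR1 at rank 176 from TWS1. GSO2 was at rank 419 from ICE1 and ICE1 at rank 256 from GSO2 (distance 0.08), a distance that many genes with even levels share. ZOU was close to none of the others: its nearest was ICE1 at rank 6397, and KRS and ALE1 were at ranks 17451 and 17916.

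**Figure D3:**
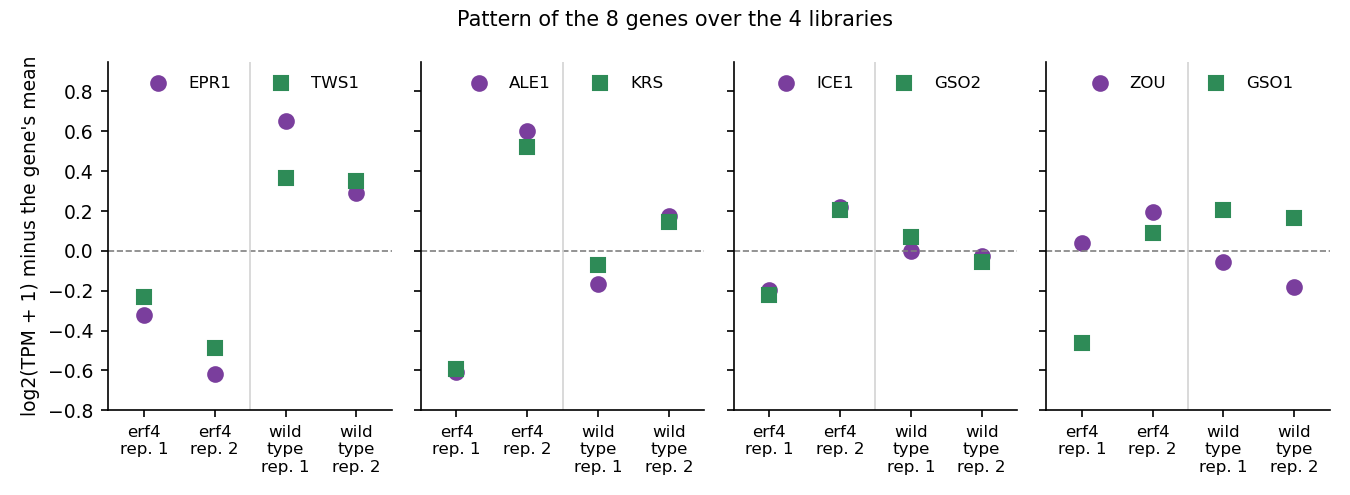
Level of each gene in each library relative to the gene's own mean (vertical axis, log2(TPM + 1); 2 genes per panel). ALE1 and KRS nearly coincide in all 4 libraries, with -0.61 and -0.59 in erf4 replicate 1 and 0.60 and 0.52 in erf4 replicate 2; EPR1 and TWS1 lie below 0 in both erf4 libraries and above 0 in both wild-type libraries.

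The 3 genes outside the group with a mean of at least 20 TPM and the nearest pattern were looked up for EPR1 and ZOU among 8814 candidates. Nearest to EPR1 was AT5G01670, an NAD(P)-linked oxidoreductase gene, with 21.9 and 17.9 TPM in erf4 and 45.0 and 38.0 TPM in the wild type (distance 0.13). It was followed by the phosphate starvation gene AT5G03545, at a distance of 0.18, and by AT4G04125, at 0.24. Nearest to ZOU were EYE (AT5G51430), a gene for a Golgi complex component, LFR (AT3G22990), for an ARM repeat protein, and the transcription factor subunit gene NF-YB2 (AT5G47640), all at a distance of 0.02. EYE had 37.5 and 41.9 TPM in erf4 and 35.6 and 32.4 TPM in the wild type.

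Ratios between genes of one library do not move when that library is rescaled. In bulk seeds they may still vary with tissue share or seed stage, which was not tested. ZOU over ICE1 was 0.236 and 0.197 in erf4, against 0.192 and 0.179 in the wild type. The ZOU transcript was far scarcer than that of its partner in every library, with erf4 slightly higher and erf4 replicate 2 close to the wild type. GSO1 over GSO2 was 0.321 and 0.379 in erf4, against 0.462 and 0.490 in the wild type. GSO1 was below GSO2 in every library, and lower relative to it in both erf4 libraries, by 0.45 on the log2 scale (SD within genotypes 0.13); the overlap of GSO1 with its neighbour bears on this ratio.

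TWS1 over ALE1, the transcripts of substrate and protease, was 1.61 and 0.569 in erf4, against 1.79 and 1.39 in the wild type. Erf4 replicate 2 was the only library with less TWS1 than ALE1, and erf4 replicate 1 lay within the wild-type range. TWS1 over GSO1, ligand precursor over receptor, was 16.3 and 8.32 in erf4 and 13.8 and 14.1 in the wild type, so the erf4 libraries lay on either side of the wild type.

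EPR1 over ZOU was 17.3 and 12.5 in erf4, against 36.3 and 30.8 in the wild type. This was the largest difference among the 6 pairs listed, with a difference of -1.18 on the log2 scale (SD within genotypes 0.26) that ran from -1.41 to -0.95 when each library was left out. KRS over ZOU was 2.51 and 4.87 in erf4 and 3.86 and 4.91 in the wild type, and overlapped. KRS over ALE1, a pair chosen after the values were seen, was 3.94 and 3.63 in erf4 and 4.13 and 3.78 in the wild type. Its highest value was 1.14 times its lowest, although each gene alone varied more than 2-fold across the same libraries.

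**Figure D4:**
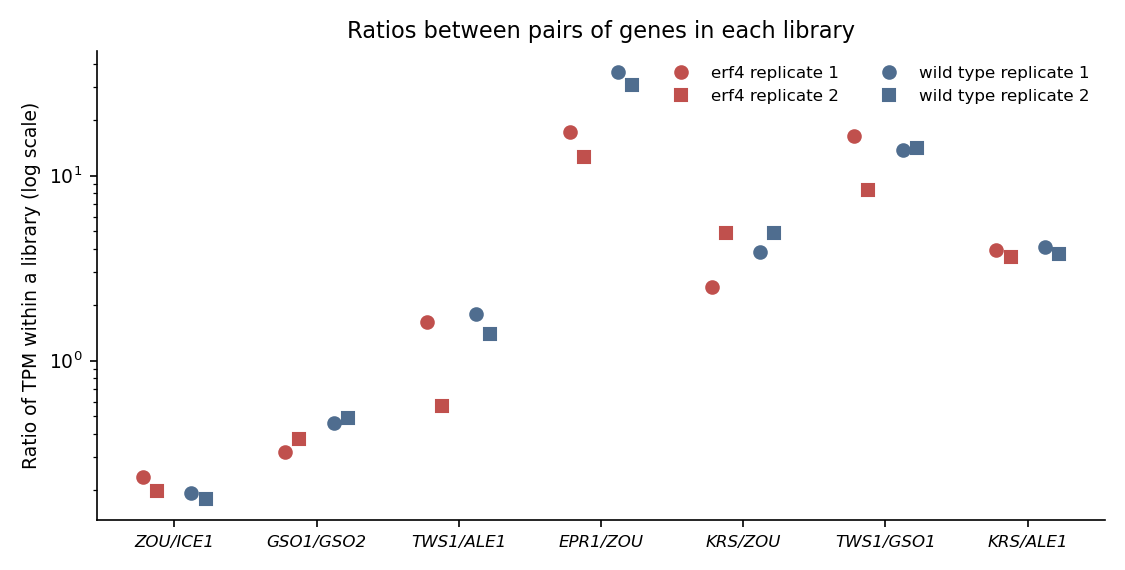
Ratio of TPM between 2 genes within each library (vertical axis, log scale; red, erf4; blue, wild type; circles, replicate 1; squares, replicate 2). EPR1/ZOU is 17.3 and 12.5 in erf4 and 36.3 and 30.8 in the wild type without overlap, and KRS/ALE1 stays between 3.63 and 4.13 in all 4 libraries.

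The genes that sulphate, perceive and relay the peptide signal differed little between genotypes. Of 16 genes listed for this pathway 12 were tested, none was called in either direction, 7 had a positive log2 fold change, and the median was 0.04, beside 0.03 over all tested genes; it ran from -0.11 to 0.16 when each library was left out. Single values ran from -0.29 to 0.19. TPST (AT1G08030), the enzyme that sulphates tyrosines of such peptides, had 13.6 and 19.5 TPM in erf4 and 17.1 and 14.8 TPM in the wild type. The co-receptor gene SERK1 (AT1G71830) had 17.1 and 19.8 TPM in erf4 against 15.6 and 16.3 TPM in the wild type, and the kinase gene MPK6 (AT2G43790) 46.4 and 47.6 TPM against 44.1 and 40.4 TPM. The NADPH oxidase genes RBOHF (AT1G64060) and RBOHD (AT5G47910), whose products make reactive oxygen at the cell surface, stood at -0.29 and -0.24 on the log2 scale. Of the 12 tested genes, 2 were under both wild-type values in both erf4 libraries (RBOHF and RBOHD) and 2 exceeded both (SERK1 and MPK6). Over all tested genes 12.2% were under and 21.5% exceeded both. The 4 genes that were not tested were listed at 0 in every library.

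Genes that make and export the cuticle leaned higher in erf4. Of 22 genes listed, 18 were tested and none was called in either direction; 16 had a positive log2 fold change, 11 exceeded and 1 was under both wild-type values in both erf4 libraries, and the median was 0.41. Over all 20804 tested genes 11630 were positive, 21.5% exceeded and 12.2% were under both wild-type values, and the median was 0.03. ATT1 (AT4G00360), a cytochrome P450 of cutin synthesis, had 106 and 103 TPM in erf4, against 63.1 and 54.0 TPM in the wild type (0.83 on the log2 scale, SE 0.15, limma adjusted p = 0.431). The transporter gene ABCG12 (AT1G51500), which exports wax, had 249 and 294 TPM in erf4, against 168 and 150 TPM in the wild type (log2 fold change 0.77, limma adjusted p = 0.461). Both were clear of the wild-type range. The wax gene CER3 (AT5G57800) had 373 and 414 TPM in erf4, against 276 and 250 TPM in the wild type, and the elongase gene FDH (AT2G26250) 239 and 235 TPM against 179 and 140 TPM. The gene under both wild-type values was LACS2 (AT1G49430), with 14.7 and 15.0 TPM in erf4 against 26.8 and 15.3 TPM in the wild type. Its log2 fold change was -0.43. The other negative gene, LCR (AT2G45970), stood at -0.09 and overlapped.

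The size of this lean depended on the wild-type libraries: the median was 0.64 when wild type replicate 1 was left out, 0.19 when wild type replicate 2 was, and 0.36 when erf4 replicate 2 was. These genes are also active in the seed coat and fruit wall. The 7 seed coat genes listed, which include BAN, summed to 1274 and 1418 TPM in erf4 and 1194 and 1194 TPM in the wild type, with a median log2 fold change of 0.36 (0.14 when wild type replicate 2 was left out); 3 of the 7 exceeded both wild-type values in both erf4 libraries and 1, TT10 (AT5G48100), was under both. The 7 silique wall and leaf genes summed to 515 and 553 TPM in erf4 and 445 and 401 TPM in the wild type, with a median of 0.22 (0.095 when erf4 replicate 2 was left out); 5 of the 7 exceeded both wild-type values and 2, FIL (AT2G45190) and YAB3 (AT4G00180), were under both. The shares over all tested genes were again 21.5% and 12.2%. Every gene of both lists was detected. The part of these tissues in the cuticle genes was not tested.

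Regulators of embryo epidermis identity were mixed. Of 5 tested none was called in either direction, 3 had a positive log2 fold change, and the median was 0.11, or 0.0017 to 0.22 when each library was left out. ATML1 (AT4G21750), a homeodomain gene of the epidermis, had 75.2 and 71.9 TPM in erf4, against 57.6 and 50.9 TPM in the wild type (log2 fold change 0.43, limma adjusted p = 0.617). Its close relative PDF2 (AT4G04890) had 30.2 and 38.1 TPM in erf4 and 41.9 and 37.1 TPM in the wild type, and overlapped. The receptor kinase gene ALE2 (AT2G20300) had 12.9 and 13.1 TPM in erf4 against 11.6 and 10.5 TPM in the wild type, and DEK1 (AT1G55350), a calpain gene of epidermis formation, stood at -0.16.

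Other endosperm genes leaned higher in erf4 where they were tested. Of 11 listed 8 were tested, none was called in either direction, 6 had a positive log2 fold change, 5 exceeded and 0 were under both wild-type values, where 21.5% and 12.2% of all tested genes did so, and the median was 0.43. The median was 0.065 with no filter on low values and 0.20 over genes with a mean of at least 5 TPM. They summed to 227 and 254 TPM in erf4, against 163 and 168 TPM in the wild type. Much of the gap between these sums was in the homeodomain gene HDG3 (AT2G32370). It had 73.3 and 61.6 TPM in erf4, against 25.7 and 21.0 TPM in the wild type. The endosperm sucrose transporter gene SUC5 (AT1G71890) had 89.2 and 97.7 TPM in erf4 against 73.7 and 72.4 TPM in the wild type. MEA (AT1G02580) at -0.17, MYB115 (AT5G40360) at -0.09 and MYB118 (AT3G27785) at 0.05 on the log2 scale overlapped between genotypes. AGL62 (AT5G60440), IKU2 (AT3G19700) and MINI3 (AT1G55600), known from early endosperm, were listed at no more than 0.43 TPM in any library. Unlike KRS and ALE1 themselves, the 4 other genes listed for the endosperm next to the embryo, where ZOU, ALE1 and KRS act, were low. ESF1.3 (AT1G10717) had 6.39 and 19.7 TPM in erf4 and 7.72 and 1.26 TPM in the wild type. CLE8 (AT1G67775) had 3.22 and 8.06 TPM against 11.2 and 0.79 TPM. ESF1.2 (AT1G10745) had 4.43 and 2.30 TPM against 2.83 and 0.38 TPM, and ESF1.1 (AT1G10747) was listed at 0 in every library. The 3 tested genes of this list summed to 14.0 and 30.0 TPM in erf4 and 21.7 and 2.43 TPM in the wild type, which overlap. All 3 had a positive log2 fold change, as did 11630 of all 20804 tested genes. Their median was 0.88, and it ran from 0.14 to 1.79 when each library was left out. Each of the 3 overlapped between genotypes, and none was called in either direction. All 3 were lower in wild type replicate 2 than in wild type replicate 1, where ALE1 and KRS were higher.

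**Figure D5:**
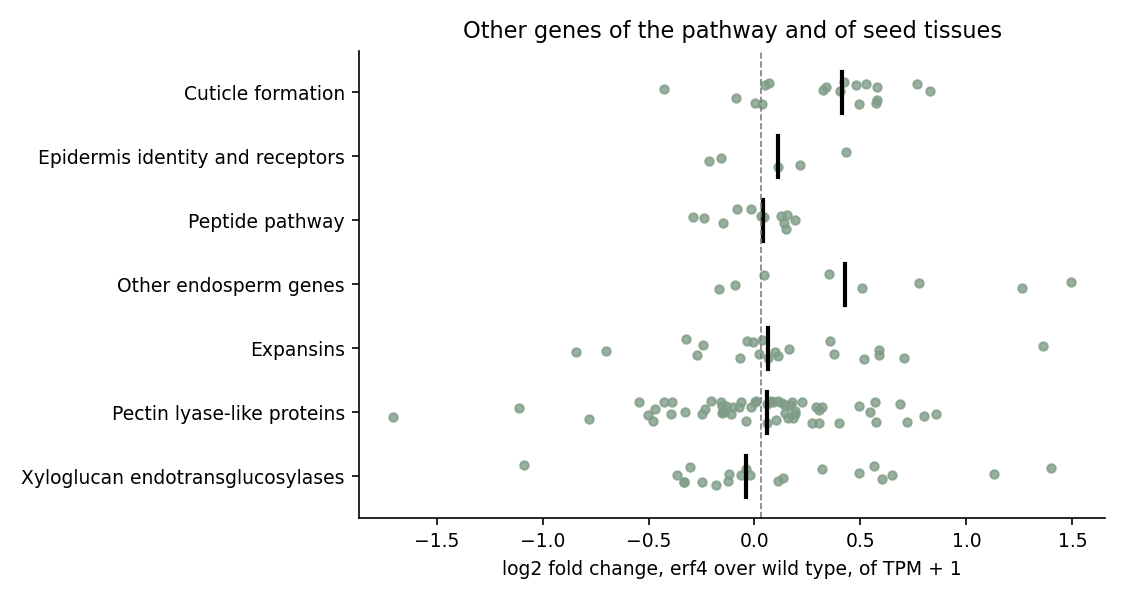
Log2 fold change of TPM + 1, erf4 over wild type, for the tested genes of 7 lists (points, genes; black bars, list medians; dashed line, the median of 0.03 over all tested genes; vertical scatter has no meaning). The medians of the cuticle genes (0.41) and of the other endosperm genes (0.43) lie to the right of the line, and those of the wall-loosening families (0.06, 0.06 and -0.04) lie near it.

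Families that loosen walls, which the softening of the endosperm calls on, showed no common direction. Members were taken by their RefSeq product text. Of 34 expansin genes 21 were tested, with a median log2 fold change of 0.06. Of 117 genes for polygalacturonases and pectin lyase-like proteins, a product text that some pectin methylesterases share, 58 were tested, with a median of 0.06. Of 29 genes for xyloglucan endotransglucosylases 21 were tested, with a median of -0.04, or 0.41 over genes with a mean of at least 5 TPM. None of these genes was called in either direction. The expansin gene with the smallest p, EXPA16 (AT3G55500), had 11.2 and 10.0 TPM in erf4, against 4.71 and 2.58 TPM in the wild type, while EXPA5 (AT3G29030) had 29.9 and 19.6 TPM in erf4, against 42.5 and 45.8 TPM in the wild type. XTH32 (AT2G36870) was low, with 2.33 and 1.44 TPM in erf4 and 5.24 and 4.87 TPM in the wild type. XTH30 (AT1G32170) had 66.5 and 59.4 TPM in erf4, against 48.6 and 40.5 TPM in the wild type. XTH11 (AT3G48580) had 141 and 187 TPM against 98.9 and 121 TPM, and XTH9 (AT4G03210) 62.5 and 47.9 TPM against 42.9 and 29.7 TPM. Of the 21 tested, these 3 exceeded and 5 were under both wild-type values in both erf4 libraries. Over all tested genes 21.5% exceeded and 12.2% were under both.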

How the data were processed

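RNA of whole seeds was sequenced in 2 erf4 and 2 wild-type libraries, grouped and numbered by their titles. The authors deposited TPM per gene and library, and genotype means that entered no test; fastp, HISAT and RSEM are named without versions or roles, per the submitters' processing notes, and the genome build is not given in the sources used here. RefSeq's TAIR10.1 annotation, matched by 32548 identifiers (98.1%) and all 8 genes, served for names, products, chromosomes and overlaps; no coordinates or sequences are given. Depth is unknown, so no counting interval is given.

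The test was limma 3.58.1 (R 4.3.3), two-sided with a variance trend and genotype as its term, on log2(TPM + 1) of the 20804 genes that reached 1 TPM in at least 2 libraries, with Benjamini-Hochberg adjustment over all of them; called means an adjusted p under 0.05. Log2 fold changes understate those of low genes; ratios of means are of TPM. Genes named are the 8, up to 4 genes of each list with the smallest p, genes needed for a check, and the nearest patterns to EPR1 and ZOU. TPST, AGL62, IKU2, MINI3, MEA, MYB115, MYB118, MUTE, ESF1.1, LACS2, LCR, TT10 and YAB3 were added after their values were seen. The 8 genes and the lists were chosen with earlier results of these data known. Alternatives were pseudocounts of 0.1 and 5, no filter or a mean of at least 5 TPM, rescaling by quantiles or by median ratios, no variance trend, a threshold of 0.1, a replicate block and each library left out; list counts without each library and the KRS/ALE1 ratio were added after the data were seen.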

Additional observations from a re-analysis of the deposited data

How the results depend on the processing

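Depth is unknown, GSO1 is low and overlaps a neighbour, and each genotype has 2 libraries, so only large and even differences could pass. Where a library was left out, the lone library of that genotype was assumed to vary like the other genotype. No gene was called under either pseudocount, the filter at a mean of 5 TPM, either rescaling, no variance trend or the threshold of 0.1; limma called 44 genes with no filter and, leaving out 1 library, 0 to 8. Leaving out 1 library gave 1 to 5 of the 8 genes above and 3 to 7 below the wild-type range. Over all tested genes the shares then ran from 29.2% to 55.1% above and from 16.8% to 46.5% below. EPR1 and TWS1 stayed lower and GSO1 lower and ZOU higher under every setting in which they were tested (GSO1 was not tested at a mean of 5 TPM). Direction was not stable for the other 4: ICE1 was -0.013 after median-of-ratios rescaling and -0.032 after quantile normalization, ALE1 was 0.0016 with a pseudocount of 5, and leaving out 1 library gave -0.19 to 0.23 for ICE1, -0.61 to 0.60 for ALE1, -0.23 to 0.20 for GSO2 and -0.63 to 0.48 for KRS; the cause was not tested. Median log2 fold changes of lists near 0 changed sign when a library was left out, such as -0.23 to 0.46 for expansins.

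Nothing in the labels says that equal replicate numbers mark a shared growth or batch. Deviations from the genotype means of same-numbered libraries had a Pearson correlation of 0.35 across genes, which with 2 libraries per genotype is the same value for both numbers. With the replicate block limma called 1083 genes, including EPR1 (adjusted p = 9.31e-04) and TWS1 (adjusted p = 0.0136), and none of the other 6.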

Other observations

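Among all 28 pairs of the 8 genes, the ratio within a library overlapped between genotypes for 15 pairs. It exceeded both wild-type values in both erf4 libraries for 10 and was under both for 3. Which of these directions a pair shows depends on which gene is divided by which, so 10 against 3 has no meaning. No share over pairs of other genes was computed. The pairs with the steadiest ratio over the 4 libraries were ICE1/GSO2, whose highest value was 1.09 times its lowest, and KRS/ALE1. TWS1/EPR1 was 0.0594 and 0.0608 in erf4 and 0.0460 and 0.0585 in the wild type, which is above the wild-type range by a small step, with both genes lower in erf4. ALE1/EPR1 varied most, with 0.0369 and 0.107 in erf4 and 0.0257 and 0.0421 in the wild type. These pairs were looked at after the values were seen, share genes with each other and were not tested.

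Genes with the pattern nearest to ALE1, also looked up after the values were seen, included AT5G03245, with 15.8 and 38.5 TPM in erf4 and 20.6 and 27.2 TPM in the wild type, and AT5G49645, with 30.0 and 71.8 TPM in erf4 and 44.5 and 57.4 TPM in the wild type. Nearest to KRS were AT4G36515 and AT5G12460; the second had 75.7 and 148 TPM in erf4 and 103 and 118 TPM in the wild type.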
